A study of Homo sapiens with 4 samples.

Results

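The serpins are a family of proteins that share 1 fold, and most of them inhibit proteases. The gene family was read here from the count table as every row whose symbol is SERPIN, a clade letter from A to I and a number, without pseudogenes. This gave 35 of 58051 rows. Of these, 34 are described, and 15 of the 34 held enough counts to be tested. An inhibitory serpin offers a flexible loop as bait. When a serine or cysteine protease cuts the loop, the serpin swings it into its own core and drags the protease along, so that both are spent in a covalent complex. A few members have lost this activity and serve as hormone carriers or as chaperones. In ovarian and other carcinomas the family is best known for the control of plasminogen activation, the proteolytic cascade at the cell surface and in the matrix.

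The samples were IGROV1 cells, an established human ovarian carcinoma line, sequenced as poly(A) RNA from the wild-type line (WT, labelled susceptible to cisplatin) and from a cisplatin-resistant line (CR). The CR line was selected from WT by 6 cycles of a 4 hour exposure to rising cisplatin, each with about 3 weeks of release in drug-free medium, over about 5 months. Both lines were collected in log growth in normal medium without drug. Each group had 2 libraries that the study calls biological replicates, 4 in all. All replicates come from 1 parent and 1 selected line, so the spread that the tests use is that among cultures of a single selection.

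The libraries held 23886257 to 24727362 counts. The WT pair was less alike than the CR pair. The spread over genes of the log2 ratio between replicates was 0.645 in WT and 0.246 in CR (median absolute deviation, scaled to match a standard deviation). The ovarian lineage factor PAX8 had 546 and 286 CPM (counts scaled to library size) in WT and 399 and 395 in CR, with means of 416 and 397. The marker WT1 was close to silent, with 20 and 8 counts in WT and 4 and 0 in CR, and was not tested. The summed level of 8 ovarian epithelial markers was 3324 to 4615 CPM in WT and 1917 to 2029 in CR, with KRT7, KRT8, KRT18, MUC16 and MSLN lower and EPCAM higher. Markers of leukocytes (5 genes) summed to 0.214 to 0.586 CPM in WT and 0.358 to 0.654 in CR, and MS4A1 was at 0. Those of hepatocytes (5 genes), the main source of many serpins in the body, summed to 0.126 to 0.428 and 0.279 to 0.614 CPM. Of 6 fibroblast markers DCN and LUM were at 0 in every library. The sum of the 6 was 34.7 to 59.6 CPM in WT and 3.18 to 3.44 in CR. In WT it came mostly from the collagen COL1A1 (mean 44.3 CPM). In CR the means were 1.38 CPM for COL1A1, 1.37 for PDGFRB and 0.546 for PDGFRA. COL1A1 was called lower, while PDGFRB and PDGFRA were not called. Of 4 endothelial markers KDR was at 0, and the sum was 67.0 to 85.3 CPM in WT and 29.8 to 33.4 in CR, with CDH5 lower (44.0 to 0.989 CPM), PECAM1 higher (0.232 to 3.53 CPM) and VWF not past the threshold (edgeR adjusted p = 0.000138, 0.0045 and 0.666). The part of these markers in the serpin results was not tested. In bulk RNA, fewer cells of a type and less RNA per cell cannot be told apart.

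In the CR line the serpins changed in both directions. The genes for the collagen chaperone SERPINH1, the elastase inhibitor SERPINB1, α1-antitrypsin (SERPINA1) and the C1 inhibitor (SERPING1) fell. Those for protease nexin-1 (SERPINE2), neuroserpin (SERPINI1) and corticosteroid-binding globulin (SERPINA6) rose. Of the 15 tested members 3 rose, 4 fell and 8 did not pass (quasi-likelihood test of edgeR, with p-values adjusted by Benjamini-Hochberg over all 17304 tested genes and a threshold of 0.05). Over all tested genes 13.5% passed, 5.44% as higher and 8.10% as lower. The median log2 fold change, CR minus WT, was -0.021 over the tested serpins and -0.0065 over all tested genes. In 10 of the 15 both CR libraries lay on the same side of both WT libraries, against 55.3% of all tested genes.

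**Figure D1:**
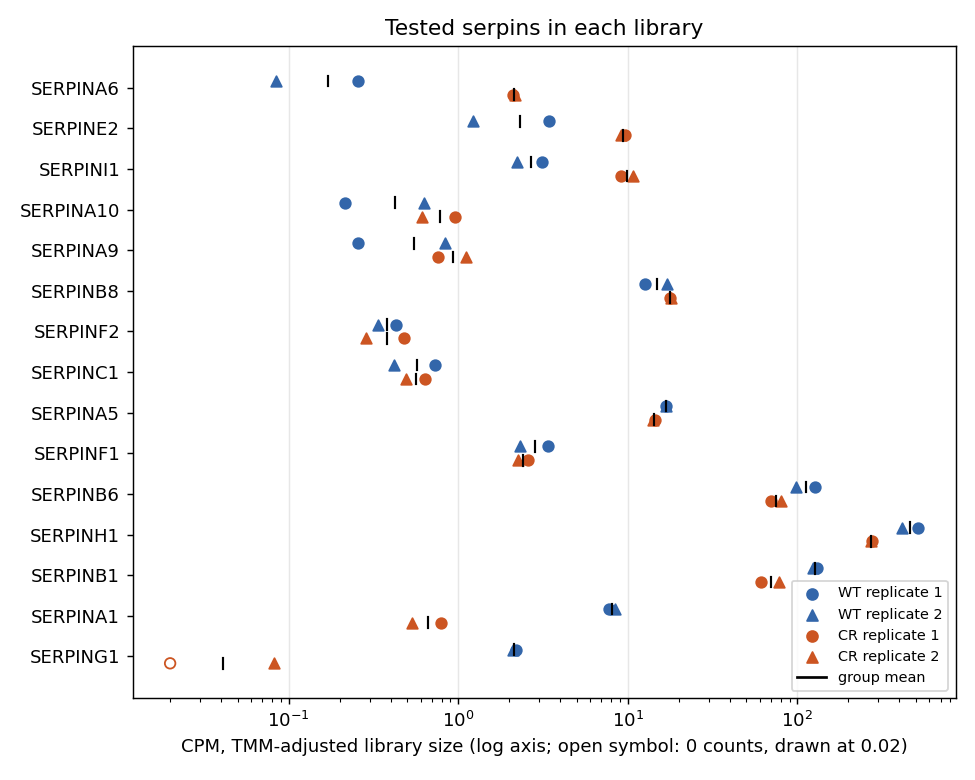
CPM of the 15 tested serpins on a log axis, ordered by fitted fold change, with a circle or triangle for each replicate, blue for WT and orange for CR, and a black bar at the group mean. SERPINH1, SERPINB1 and SERPINB6 are the most abundant in both lines, and SERPINA1 and SERPING1 show the widest gaps to the left in CR.

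The family took a small part of the transcriptome, and that part was smaller in CR. The 34 serpin genes held 19280 and 16431 counts in the WT libraries and 11709 and 11970 in the CR libraries, which is 0.0807% and 0.0677% of all counts in WT and 0.0474% and 0.0499% in CR. SERPINH1, SERPINB1 and SERPINB6 together made up 93.7% and 92.2% of these counts in WT and 87.1% and 87.6% in CR. On a scale that divides the CPM by the merged exon length in kilobases, SERPINH1 ranked first in both lines (73.9 in WT, 43.4 in CR), before SERPINB1 (41.2 and 22.5) and SERPINB6 (8.55 and 5.69). Next came SERPINA5 in WT (4.43 CPM per kilobase) and SERPINI1 in CR (4.09 CPM per kilobase). SERPING1, at 0.594 CPM per kilobase in WT, was last in CR at 0.0114.

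SERPINH1 (GRCh38 chromosome 11, 75562056 to 75572783, plus strand), also known as HSP47, sits in the endoplasmic reticulum and helps collagen chains fold into triple helices; it inhibits no protease. It had 516 and 413 CPM in WT replicates 1 and 2 and 275 and 271 CPM in CR replicates 1 and 2. Both CR libraries were below both WT libraries, and the CR pair lay close together. The mean fell from 464 ± 72.8 to 273 ± 2.998 CPM (mean ± SD over n = 2 libraries, as for all later values with ±), 1.70-fold lower (edgeR log2 fold change -0.77 with an SE of 0.18, adjusted p = 0.0344). The call was lost with upper quartile factors (edgeR adjusted p = 0.0525) and without CR replicate 1 (0.237) or 2 (0.281). The pseudogene SERPINH1P1, which could share reads with it, had 4 to 9 counts per library.

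The clade B serpins lack a classical signal peptide and act mostly inside cells, where they guard against proteases that leak from granules and lysosomes. SERPINB1 (chromosome 6, 2832332 to 2842006, minus strand), an inhibitor of neutrophil elastase and cathepsin G, had 131 and 123 CPM in WT and 61.4 and 77.7 CPM in CR. The groups did not overlap, and the mean fell from 127 ± 5.64 to 69.6 ± 11.5 CPM, 1.83-fold (edgeR log2 fold change -0.87 with an SE of 0.21, adjusted p = 0.0352). The call was lost without CR replicate 1 (edgeR adjusted p = 0.549) or 2 (0.192).

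SERPINB6, which inhibits cathepsin G and lies on the same strand of the same cluster, had 127 and 98.5 CPM in WT and 69.7 and 80.5 CPM in CR. Its groups did not overlap either, but it did not pass (112.9 ± 20.4 against 75.1 ± 7.66 CPM; log2 fold change -0.59; edgeR adjusted p = 0.142). Its log2 fold change was -0.39 without WT replicate 1 and -0.76 without WT replicate 2. SERPINB9, the granzyme B inhibitor that lies between them, was close to silent, with 6 and 1 counts in WT and 0 and 1 in CR.

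SERPINB8 (chromosome 18, 63969925 to 64019779, plus strand), an inhibitor of the proprotein convertase furin, was the only tested member of the chromosome 18 cluster. It had 12.6 and 17.1 CPM in WT and 17.6 and 17.9 CPM in CR. The CR libraries were above both WT libraries by little (edgeR log2 fold change 0.26, adjusted p = 0.603). Its log2 fold change was 0.50 without WT replicate 2. Of the 10 genes of that cluster, 7 had 0 counts in every library, among them SERPINB2 (plasminogen activator inhibitor 2) and the squamous carcinoma antigens SERPINB3 and SERPINB4. SERPINB5 (maspin) had 2 and 4 counts in WT and 0 in CR. SERPINB10 had 3 counts, all in CR replicate 2.

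A pair of inhibitors of plasminogen activators was higher in CR. SERPINE2 (protease nexin-1; chromosome 2, 223975112 to 224039319, minus strand) inhibits thrombin, urokinase and tissue plasminogen activator at the cell surface and in the matrix. It had 3.43 and 1.21 CPM in WT and 9.63 and 9.12 CPM in CR. The WT replicates differed more than the CR replicates, and the groups did not overlap. The mean rose from 2.32 ± 1.56 to 9.38 ± 0.363 CPM, 4.06-fold (edgeR log2 fold change 2.01 with an SE of 0.48, adjusted p = 0.0367), a call kept in every alternative run. Its log2 fold change was 2.94 without WT replicate 1 and 1.45 without WT replicate 2. The bases before an alternative start inside the gene are shown for their matches to CCAAT and an exact repeat. RefSeq (GRCh38.p14, which shares its primary coordinates with the build of the study) lists this start, downstream of the annotated 5′ end printed above, and its 250 upstream bases, chr2:224031479-224031728 on the minus strand, are covered by no GENCODE 29 exon. RefSeq lists a further start nearer that end, whose upstream bases are not printed. Capitals mark CCAAT or its reverse complement ATTGG and the GC box GGGCGG.
SERPINE2: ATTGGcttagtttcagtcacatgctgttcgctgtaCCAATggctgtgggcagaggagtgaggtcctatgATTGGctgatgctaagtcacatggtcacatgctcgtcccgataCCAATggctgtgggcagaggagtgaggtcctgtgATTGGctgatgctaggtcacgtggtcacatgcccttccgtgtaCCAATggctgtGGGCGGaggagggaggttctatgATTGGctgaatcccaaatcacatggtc
The stretch held 7 matches to CCAAT on both strands together and 1 to GGGCGG on its own strand, none to TATAAA, and an exact repeat of 33 bases. Of 35116 RefSeq promoter windows cut to the same length, 32.0% held CCAAT, 42.6% GGGCGG and 10.7% TATAAA on either strand. A match describes the letters and does not show binding.

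SERPINI1 (neuroserpin; chromosome 3, 167735243 to 167825568, plus strand) inhibits tissue plasminogen activator and is best known from neurons. It had 3.13 and 2.22 CPM in WT and 9.12 and 10.7 CPM in CR, with every CR value above every WT value. The mean rose from 2.67 ± 0.642 to 9.90 ± 1.10 CPM, 3.71-fold (edgeR log2 fold change 1.89 with an SE of 0.32, adjusted p = 0.0101). Without CR replicate 2 the call was lost (edgeR adjusted p = 0.0511). Its start lies 303 bases from the annotated 5′ end of PDCD10, a gene of the opposite strand that is mutated in cerebral cavernous malformation and was looked up after the serpin values were seen. PDCD10 did not pass, at 20.3 ± 3.45 CPM in WT and 24.2 ± 3.60 CPM in CR (edgeR log2 fold change 0.25, adjusted p = 0.607). Its log2 fold change was 0.43 without WT replicate 2. Whether the neighbours differ in their change was not tested.

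Of the other serpins of the plasma cascades, SERPINA5 (protein C inhibitor), which also inhibits urokinase, had 16.7 and 16.8 CPM in WT and 14.5 and 14.1 CPM in CR. The replicates of each group nearly coincided, and the difference of -0.23 on the log2 scale did not pass (edgeR adjusted p = 0.61). SERPINF2 (α2-antiplasmin) was low, at 0.428 and 0.335 CPM in WT and 0.478 and 0.286 in CR. SERPINC1 (antithrombin) had 0.728 and 0.419 CPM in WT and 0.637 and 0.491 in CR. The groups of both genes overlapped, and neither passed (edgeR adjusted p = 0.998 and 0.99). SERPINF1 (pigment epithelium-derived factor), the neighbour of SERPINF2 and no protease inhibitor, had 3.38 and 2.30 CPM in WT and 2.59 and 2.25 in CR and did not pass (edgeR adjusted p = 0.775). SERPIND1 (heparin cofactor II) stayed under the filter with 2 and 6 counts in WT and 4 and 8 in CR.

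**Figure D2:**
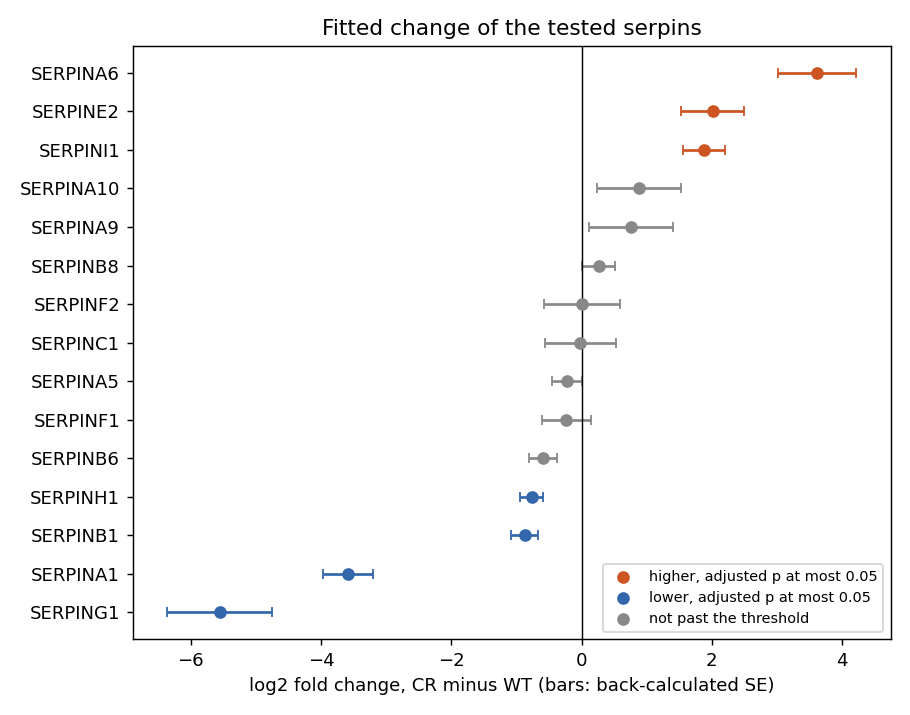
Fitted log2 fold change of the 15 tested serpins, CR minus WT, with bars of 1 back-calculated standard error, orange for higher, blue for lower and grey for not past the threshold. The called changes run from -5.56 for SERPING1 to 3.62 for SERPINA6, while SERPINH1 and SERPINB1 are called at less than 1 log2 unit.

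SERPING1 (C1 inhibitor; chromosome 11, 57597387 to 57614853, plus strand) blocks the C1r and C1s proteases of complement and the contact proteases of coagulation. It had 51 and 50 counts in WT and 0 and 2 in CR, that is 2.18 and 2.09 CPM against 0 and 0.0818 CPM. The WT replicates agreed closely, and CR was near the floor of the counting. With 2 counts in all of CR the ratio of WT to CR was 53.0, and its 95% counting interval ran from 14.3 to 444 (edgeR log2 fold change -5.56 with an SE of 0.81, adjusted p = 0.00548), and the call was kept in every alternative run. Without CR replicate 1 the log2 fold change was -4.62, and without CR replicate 2 the CR group had 0 counts. Of its complement targets, looked up after these values were seen, C1R fell from 45.7 ± 4.33 to 3.98 ± 0.162 CPM (edgeR log2 fold change -3.52, adjusted p = 0.000322), whereas C1S had 4.84 ± 1.33 and 4.83 ± 0.863 CPM and did not pass (edgeR adjusted p = 0.997). MASP2 had 1.80 ± 0.181 and 3.37 ± 0.321 CPM and did not pass (edgeR log2 fold change 0.90, adjusted p = 0.165). With WT replicate 1 or 2 left out its log2 fold change was 0.80 or 1.01. MASP1 had 7 counts in all, every one in CR.

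The SERPINA genes of chromosome 14 lie in a cluster of 10 members that spans 344 kilobases (94280455 to 94624055), and within it 1 gene rose and 1 fell. SERPINA1 (α1-antitrypsin; 94376747 to 94390693, minus strand), the main inhibitor of neutrophil elastase in plasma, had 7.71 and 8.38 CPM in WT and 0.796 and 0.532 CPM in CR. The groups were far apart, and the mean fell from 8.04 ± 0.470 to 0.664 ± 0.187 CPM, 12.1-fold (edgeR log2 fold change -3.59 with an SE of 0.38, adjusted p = 0.00143). SERPINA6 (94304248 to 94323394, minus strand), which carries glucocorticoids in plasma and inhibits no protease, ends 53.4 kilobases from it, with SERPINA2 in between. It had 0.257 and 0.0838 CPM in WT (6 and 2 counts) and 2.11 and 2.17 CPM in CR (53 counts in each library). The CR replicates were almost equal, and the mean rose from 0.1704 ± 0.123 to 2.14 ± 0.0409 CPM, 12.6-fold (edgeR log2 fold change 3.62 with an SE of 0.60, adjusted p = 0.00912). Both calls were kept in every alternative run, but the SERPINA6 log2 fold change was 4.59 without WT replicate 1 and 3.03 without WT replicate 2.

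The upstream sequences of SERPINA1 and SERPINA6 are shown because the genes share a cluster and a strand and changed in opposite directions. Each is the part of the 250 bases before a RefSeq start (GRCh38.p14) that no GENCODE 29 exon covers, 192 bases long and ending 58 bases before that start: chr14:94390694-94390885 for SERPINA1 and chr14:94323395-94323586 for SERPINA6, both on the minus strand. RefSeq lists a further SERPINA1 start, whose upstream bases overlap exons and are not printed. Capitals mark matches on either strand to the GC box GGGCGG, the CCAAT box, the TATA box TATAAA and the palindrome TTCNNNGAA that STAT factors bind.
SERPINA1: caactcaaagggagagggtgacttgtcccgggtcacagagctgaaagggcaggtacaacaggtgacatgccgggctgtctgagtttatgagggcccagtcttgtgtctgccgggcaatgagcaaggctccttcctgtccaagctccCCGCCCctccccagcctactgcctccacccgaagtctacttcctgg
SERPINA6: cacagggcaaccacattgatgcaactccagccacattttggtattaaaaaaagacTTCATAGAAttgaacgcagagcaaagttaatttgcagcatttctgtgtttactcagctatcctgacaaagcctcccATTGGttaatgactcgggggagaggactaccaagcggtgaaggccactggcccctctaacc
The SERPINA1 stretch held 1 GGGCGG match, on the opposite strand, and none of the other motifs. The SERPINA6 stretch held 1 CCAAT match, on the opposite strand, and 1 TTCNNNGAA match. At this length 33.4% of RefSeq windows held GGGCGG, 26.2% CCAAT, 7.44% TATAAA and 5.27% TTCNNNGAA. The GC content was 59.9% for SERPINA1 and 46.4% for SERPINA6, with 5 and 3 CpG dinucleotides, where the median window had 7.

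The other cluster members were low or silent, apart from SERPINA5 given above. SERPINA10, the inhibitor of factor Xa that acts with protein Z, had 0.214 and 0.628 CPM in WT and 0.955 and 0.614 in CR, with overlapping groups (edgeR adjusted p = 0.465). SERPINA9, known from germinal centre B cells, had 0.257 and 0.838 CPM in WT and 0.756 and 1.10 in CR, also overlapping (edgeR adjusted p = 0.541, and 0.0484 without WT replicate 2). SERPINA12 (vaspin, an adipokine) had 0 counts in WT and 8 and 9 in CR, at least 5.40-fold higher when the floor is set at 3 counts over the WT group. It stayed under the low-count filter and was called as higher only with that filter dropped. SERPINA4 (kallistatin) had 3 and 0 counts in WT and 5 and 1 in CR, SERPINA2 had 5 counts in WT replicate 2 alone, and SERPINA3 (α1-antichymotrypsin) 2 in CR replicate 2 alone. SERPINA11 had 0 counts.

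**Figure D3:**
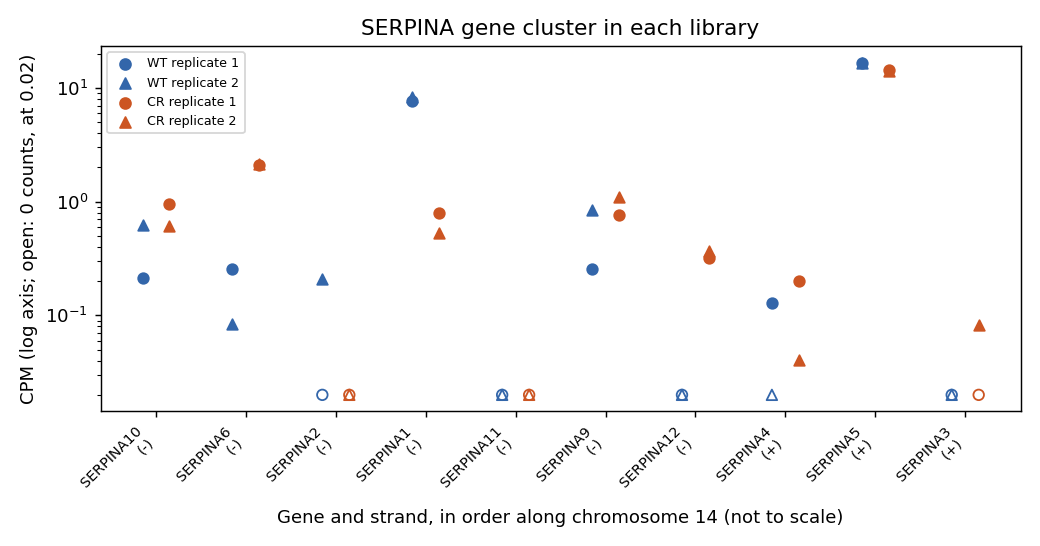
CPM on a log axis of the 10 SERPINA genes of chromosome 14 in their order along the chromosome, not to scale, with the strand in brackets and a symbol for each library; open symbols at 0.02 stand for 0 counts. SERPINA6 is higher and SERPINA1 lower in CR, while SERPINA5 is nearly level.

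In all, 9 serpins had 0 counts in every library, which allows up to 3 counts over a group, and 10 more had 2 to 34 counts in total and stayed under the filter. Beyond those named above, the thyroxine carrier SERPINA7 (chromosome X) had 0 counts, as did SERPINB7, SERPINB11, SERPINB12 and SERPINB13. SERPINA2 and SERPINB11, which the table describes as gene or pseudogene, match the symbol rule and are included. SERPINI2 had 2 counts in each group. SERPINE3 had 4 and 11 counts in WT and 10 and 9 in CR, and 789 of its exon bases overlap INTS6 on the opposite strand. Exons of the tested genes SERPINB8, SERPINA9 and SERPINA5 overlap other annotated genes by 53 to 370 bases. Whether the counting used strand is not given in the sources used here. Reads where such genes overlap may be shared or left uncounted. For pairs on the same strand, such as SERPINA5 and SERPINA4, the strand setting does not matter.

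Both plasminogen activators fell in CR. Of 8 tested genes of the plasminogen activation list, which also holds the thrombin cofactor THBD, 2 rose and 2 fell. The median log2 fold change of the 8 was -0.27. Over all tested genes 5.44% passed as higher and 8.10% as lower. The list had fewer calls without a CR library, as had all genes. PLAU (urokinase), a target of SERPINE2 and SERPINA5, fell from 11.1 ± 0.149 to 1.29 ± 0.375 CPM (edgeR log2 fold change -3.10 with an SE of 0.35, adjusted p = 0.00173). PLAT (tissue plasminogen activator) fell from 4.09 ± 0.0842 to 1.45 ± 0.0293 CPM (edgeR adjusted p = 0.033), a call lost without CR replicate 1 (0.336) or 2 (0.346). S100A10, a plasminogen receptor subunit that pairs with annexin A2, rose from 2.41 ± 0.860 to 136.9 ± 21.5 CPM, 56.6-fold (edgeR log2 fold change 5.83, adjusted p = 0.000185). THBD (thrombomodulin) had 1 count in WT and 29 in CR, 27.6-fold more with a 95% counting interval from 4.58 to 1128 (edgeR adjusted p = 0.0223); it did not pass in DESeq2 (adjusted p = 0.0877) or without CR replicate 1 (edgeR adjusted p = 0.0802) or 2 (0.101). Plasminogen itself (PLG) had 0 counts. The urokinase receptor PLAUR had 6.16 ± 0.590 and 4.71 ± 0.918 CPM and did not pass.

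Of 12 tested coagulation proteases and receptors 2 rose and 1 fell. These counts moved with single libraries left out, as did those over all genes. The shares over all tested genes were 5.44% higher and 8.10% lower. F2 (prothrombin), whose active form SERPINE2 and SERPINC1 inhibit, rose from 10.2 ± 2.38 to 70.9 ± 1.56 CPM, 6.98-fold (edgeR log2 fold change 2.80 with an SE of 0.26, adjusted p = 0.000826). F3 (tissue factor), which starts coagulation, fell from 60.4 ± 16.6 to 17.4 ± 1.13 CPM (edgeR adjusted p = 0.00616). KLKB1 (plasma prekallikrein), a target of SERPING1, rose from 0.212 ± 0.0034 to 1.17 ± 0.194 CPM (edgeR adjusted p = 0.0257), a call that DESeq2 did not make (adjusted p = 0.073) and that was lost without CR replicate 1 (edgeR adjusted p = 0.129) or 2 (0.269). The list median was a log2 fold change of 0.28.

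Of 12 tested trypsin-like and proprotein convertase genes 2 rose and 3 fell, with a median log2 fold change of -0.13. Over all tested genes 5.44% passed as higher and 8.10% as lower. The list had more lower calls without a WT library, as had all genes. ST14 (matriptase) fell from 46.3 ± 8.53 to 1.29 ± 0.0818 CPM, 35.8-fold (edgeR log2 fold change -5.16 with an SE of 0.30, adjusted p = 0.000183). TMPRSS4 fell from 57.3 ± 38.9 to 8.17 ± 0.386 CPM (edgeR adjusted p = 0.0109), and PRSS8 (prostasin), which works with matriptase in epithelia and was named after its values were seen, from 2.23 ± 0.185 to 0.180 ± 0.196 CPM (0.0186). The log2 fold change of TMPRSS4 was -2.81, and -1.87 without WT replicate 1; that of PRSS8 was -3.58, and -5.59 and -2.77 without CR replicates 1 and 2. PRSS12 (neurotrypsin) rose from 1.60 ± 0.693 to 22.1 ± 1.23 CPM (edgeR adjusted p = 0.001) and PCSK5, a proprotein convertase, from 65.3 ± 5.18 to 199 ± 12.6 CPM (0.00225). FURIN, the target of SERPINB8, stood at 201 CPM in WT against 231 CPM in CR and did not pass.

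The granule proteases that SERPINB1, SERPINB6, SERPINB9 and SERPINA1 are known to inhibit had few counts. Of 10 such genes only GZMM was tested, at 0.449 ± 0.516 and 0.587 ± 0.154 CPM, and it did not pass (edgeR adjusted p = 0.845). Elastase (ELANE) had 2 and 0 counts in WT and 0 and 3 in CR, cathepsin G (CTSG) 0, and granzyme B (GZMB) 2 and 2 in WT and 0 and 6 in CR. Proteinase 3 (PRTN3), named after its values were seen, had 8 and 13 counts in WT and 0 and 1 in CR (ratio 22.0, 95% counting interval 3.55 to 912). Without the low-count filter 1 gene of the list was called lower. Of 10 tested cysteine cathepsins 1 rose and 2 fell, with a median log2 fold change of -0.19. Over all tested genes 5.44% passed as higher and 8.10% as lower. The cathepsins had more calls without WT replicate 1 and fewer without a CR library, as had all genes. CTSF fell from 14.1 ± 0.0164 CPM to 1 count (ratio 698, 95% counting interval 125 to 27610; edgeR adjusted p = 0.000252) and CTSS from 5.22 ± 1.44 to 1.31 ± 0.168 CPM (edgeR adjusted p = 0.0162), the latter lost without CR replicate 1 (0.136) or 2 (0.0638). CTSC, which activates granule proteases, rose from 196 ± 21.1 to 400.0 ± 10.5 CPM (edgeR adjusted p = 0.00989), a call lost without CR replicate 2 (0.0571).

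Of 8 tested receptors that clear serpin and protease complexes 1 passed, against 13.5% of all tested genes, and the median log2 fold change was 0.22. More of them were called without a WT library, as was the case over all genes. VLDLR rose from 85.8 ± 10.6 to 276 ± 11.3 CPM, 3.21-fold (edgeR log2 fold change 1.69 with an SE of 0.19, adjusted p = 0.00183). LRP1, the main receptor for such complexes, had 97.6 CPM in WT and 75.9 in CR with overlapping groups and did not pass (edgeR adjusted p = 0.447); it was named after its values were seen.

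Of 7 tested genes for protease inhibitors of the Kunitz, Kazal and WAP types 1 rose and 3 fell, with a median log2 fold change of -0.32. Over all tested genes 5.44% passed as higher and 8.10% as lower. The list had more calls without WT replicate 1 and fewer without CR replicate 1, as had all genes. PI3 (elafin) and SLPI, which inhibit neutrophil elastase as SERPINA1 and SERPINB1 do, fell from 12.02 ± 1.36 to 1.17 ± 0.0224 CPM (edgeR adjusted p = 0.000859) and from 171 ± 11.4 to 71.6 ± 2.57 CPM (edgeR adjusted p = 0.00594). SPINT1, the matriptase inhibitor HAI-1, fell from 214 ± 38.6 to 94.7 ± 2.44 CPM (edgeR adjusted p = 0.0108). The SLPI call was lost without CR replicate 1 (edgeR adjusted p = 0.0675), and that of SPINT1 without CR replicate 1 (0.0568) or 2 (0.0786). AMBP, the precursor of bikunin, rose from 12.7 ± 6.28 to 73.0 ± 0.769 CPM (edgeR adjusted p = 0.00529), with a log2 fold change of 2.53, and 3.15 without WT replicate 1.

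Of 6 tested members of the cystatin superfamily 3 fell and 0 rose, with a median log2 fold change of -2.25. The lower calls were 5 without the low-count filter. Over all tested genes 8.10% passed as lower. Without a WT library calls rose both in this list and over all genes. HRG fell from 11.3 ± 1.65 to 1.54 ± 0.372 CPM (edgeR adjusted p = 0.00222). CSTA (cystatin A) fell from 75 counts to 3 (ratio 26.2, 95% counting interval 8.64 to 130.1; edgeR adjusted p = 0.00627), and FETUB from 1.79 ± 1.44 to 0.0802 ± 0.0555 CPM (edgeR adjusted p = 0.0221; log2 fold change -4.39, and -5.28 to -3.18 without single libraries). The list of macroglobulin and PEBP type genes also holds RECK, which is of neither type. Of the 3 tested genes of this list 0 passed (edgeR). Only RECK was under an unadjusted p of 0.05, and DESeq2 and limma-voom called 0. Calls appeared with a WT library left out, where calls over all genes rose as well. The median log2 fold change of these 3 genes was 0.75. The nearest were RECK (14.9 ± 5.21 and 25.2 ± 2.31 CPM) and CPAMD8 (1.61 ± 0.453 and 2.77 ± 0.538 CPM).

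Most of the genes that act with SERPINH1 on collagen were not called. Of 18 tested genes of collagen folding and processing 5 fell, 0 rose and 13 did not pass, and the median log2 fold change was -0.27. Over all tested genes 8.10% passed as lower. The log2 fold changes of the 13 ran from -0.92 (FKBP14) to 0.11 (FKBP10). With single libraries left out the number of calls moved, as it did over all genes. P4HA2, a prolyl hydroxylase subunit, fell from 152 ± 10.3 to 58.3 ± 0.739 CPM (edgeR adjusted p = 0.00422). The lysyl hydroxylases PLOD3 and PLOD2 fell from 131 ± 37.7 to 60.2 ± 1.47 CPM (edgeR adjusted p = 0.0272) and from 2.18 ± 2.30 CPM to none, which is at least 36.4-fold lower by the floor of 3 counts (0.0312). PLOD2 had 13 and 91 counts in the WT libraries and was not called without the low-count filter (edgeR adjusted p = 0.199). ADAMTS2, which trims procollagen, fell from 2.60 ± 0.527 to 0.142 ± 0.0312 CPM (edgeR adjusted p = 0.0033). PCOLCE, named after its values were seen, passed narrowly (13.2 ± 7.10 and 4.38 ± 0.455 CPM; edgeR adjusted p = 0.04996) and was not called in limma-voom (adjusted p = 0.0852), with library size alone (edgeR adjusted p = 0.0538), with upper quartile factors (0.0528) or at the higher count minimum (0.057). Leaving out CR replicate 1 (0.156) or CR replicate 2 (0.0724) also ended that call, and its log2 fold change went from -1.59 to -0.91 without WT replicate 1. The PLOD3 call was lost without CR replicate 1 (edgeR adjusted p = 0.159) or 2 (0.132).

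**Figure D4:**
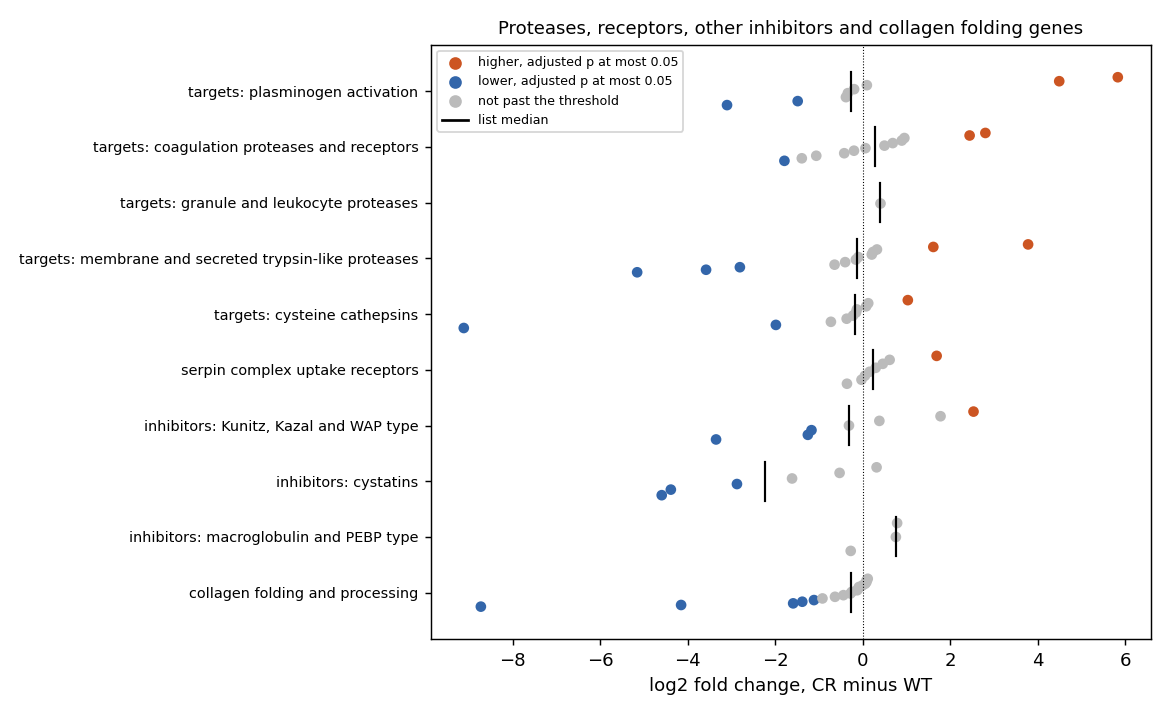
Fitted log2 fold change of each tested gene in 10 lists of serpin targets, uptake receptors, other inhibitors and collagen folding genes, with orange for higher, blue for lower and grey for not past the threshold, and a black bar at the list median. S100A10 is the point farthest to the right at 5.83 and CTSF the farthest to the left at -9.12.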

How the data were processed

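Counts per Ensembl gene were deposited by the authors as whole numbers without normalization. Libraries were strand-marked by dUTP, per the labels' protocols, and STAR 2.5.1a, HTSeq, DESeq and build GRCh38.p7 are named without role in the submitters' processing notes. The annotation used for counting is not given in the sources used here. A second, normalized table was not used. Columns of no sample numbered 0.

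Here edgeR 4.0.16 in R 4.3.3 was fitted to all 4 libraries (filterByExpr with a minimum count of 10, TMM factors, robust quasi-likelihood test, group as the only term, two-sided, Benjamini-Hochberg over 17304 genes, threshold 0.05). These held 99.9% of the counts. CPM use TMM-adjusted library sizes. Folds are ratios of summed counts, each scaled by the summed library size of its group. They can differ slightly from ratios of the mean CPM. SEs are the log2 fold change divided by the root of F and carry no information beyond the test. Counting intervals are exact binomial (95%), and with no molecular identifiers intervals and floors cover counting error only. With 2 libraries per group the smallest p of an exact two-sided permutation test is 0.333, so none was run.

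Members, the 10 partner lists (137 symbols, 136 found) and tests were chosen with earlier results of these data known. Of the 35 serpins 1 is not reported here, and counts and totals over serpins leave it out; the other 34 are accounted for; of each list up to 4 called genes with the smallest adjusted p were named, or the 2 nearest where none was called. Coordinates, exon lengths and overlaps come from GENCODE 29 (57447 identifiers matched). RefSeq promoters were found for 27 of 34 serpins and 6 of the 7 called; stretches free of exons of at least 150 bases were printed. The code was tested on simulated data. DESeq2 1.42.0, limma 3.58.1 (voom), other factors, filters, blocks and left-out libraries were tried as alternatives.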

Additional observations from a re-analysis of the deposited data

How the results depend on the processing

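The 7 serpin calls kept their direction in all 14 alternatives and passed the threshold in 92 of 98 values; the other 6 are given with SERPINH1, SERPINB1 and SERPINI1 above. With 1 library left out the serpins called as higher ranged from 2 to 5 and those lower from 2 to 5, partner list calls from 6 to 21 and from 13 to 32 (within a list at most 5 higher and 8 lower), and calls over all genes from 537 to 3864 and from 883 to 4015. The lone library is then assumed to vary like the other pair, and calls were most frequent without a WT library. Without the low-count filter 1454 genes were higher, against 942. SERPINC1, not called, turned to 0.031 on the log2 scale with library size alone, 0.017 with upper quartile factors, 0.017 in limma-voom, 0.0040 with the replicate block and 0.0017 with the crossed block; without single libraries it ranged from -0.37 to 0.42. SERPINF2, not called, turned to -0.031 in limma-voom, -0.020 with the replicate block, -0.012 with the crossed block and between -0.41 and 0.33 without single libraries, where SERPINF1 ranged from -0.48 to 0.068. C1S, not called, turned to 0.049 with library size alone, 0.050 with upper quartile factors, 0.016 with the stricter filter, 0.010 in limma-voom, 0.012 with the replicate block, 0.011 with the crossed block and between -0.26 and 0.31 without single libraries. The cause was not tested.

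The labels name no batch and do not say whether same-numbered libraries were handled together. Their deviations correlated at -0.17 across genes, which are not independent replicates, so the value cannot settle this. With the replicate block 1258 genes were higher and 1517 lower, and with the crossed pairing, chosen after seeing the data, 1671 and 1803; serpin calls were 3 and 4 in both. Of the untested serpins 9 had 0 counts in every library and 10 had 2 to 34 counts in total, which limits what can be said of them at this depth.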
